A study of Homo sapiens with 6 samples.

Results

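Endosomal sorting in HT29 cells with a knockdown of FITM2 was examined through 76 protein-coding genes, chosen by name as VPS, SNX or CHMP followed by a digit, out of 58978 genes in the count table, 19951 of them protein-coding. They are 35 VPS, 30 SNX and 11 CHMP genes. HT29 is an established human colorectal adenocarcinoma line, grown in McCoy's 5A medium with serum and labelled untreated. RNA-seq was made from 3 libraries with a hairpin against FITM2 (shFITM2, genotype label FITM2 knockdown) and 3 with a control hairpin (shCTRL, genotype label WT). FITM2 is a membrane protein of the endoplasmic reticulum needed for lipid droplet budding. No label says how many hairpins were used, whether the cells were a clone or a pool, or that replicates were grown apart; p-values therefore rest on library-to-library spread alone, and that spread may be technical.

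Endosomes decide whether a membrane protein is returned to the cell surface or the Golgi, or is sent to the lysosome. Retromer, retriever and sorting nexins, which bind phosphoinositides on the endosome, carry cargo back. ESCRT complexes instead bud ubiquitinated cargo into the endosome, with CHMP proteins forming the filaments that cut the membrane and VPS4 ATPases taking the filaments apart. HOPS, CORVET, GARP and EARP are tethers that bring vesicles and target membranes together. In colon epithelium these routes set the turnover of growth factor and cytokine receptors and of adhesion proteins.

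The libraries held 16964075 to 18263911 counts in shFITM2 and 17176487 to 18855731 in shCTRL. FITM2 itself had 4.83, 5.98 and 4.95 CPM (counts scaled to library size, per 1e6 reads) in the shFITM2 libraries, against 13.2, 10.5 and 10.4 CPM in the shCTRL libraries, so the groups did not overlap. Its log2 fold change was −1.12 ± 0.16 (SE; adjusted p = 0.000242, edgeR), and the exact two-sided permutation test gave 0.1, the smallest p that 3 against 3 libraries allow. The 8 epithelial markers summed to 12766 to 13479 CPM in shFITM2 and 9401 to 11327 CPM in shCTRL, led by KRT8 and KRT18. CDX1 had 4 to 21 reads per library and CDX2 12 to 34. EPCAM averaged 549 CPM in shFITM2 and 634 CPM in shCTRL, while KRT8, KRT18, KRT20, VIL1 and CDX2 were higher in shFITM2. The 5 fibroblast and 3 endothelial markers each summed to at most 2.52 CPM in every library, with COL1A2 and PDGFRB at 0 in all. Of the leukocyte markers, LYZ had 878 to 914 CPM in shFITM2 and 765 to 893 CPM in shCTRL, while PTPRC, CD3E and CD68 had 0 to 3 reads per library.

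Of the 76 genes, 72 passed the filter on low counts and were tested. SNX31, SNX20, SNX10 and SNX32 were not: SNX31 had 1 read in all, SNX20 had 4, SNX10 had 1 to 6 reads per library and SNX32 2 to 12. In the group fit, edgeR's quasi-likelihood test on all genes with the group as its sole term, 46 of the 72 were called at an adjusted p under 0.05, 21 higher and 25 lower in shFITM2. Over all 14809 tested genes 48.7% were called, 24.2% higher and 24.5% lower. The median log2 fold change of the tested members was −0.05, against −0.00 over all tested genes. The CPM of the groups did not overlap for 50 of the 72, with shFITM2 above shCTRL for 22 and below it for 28; over all tested genes 59% did not overlap, 29.1% above and 29.9% below. In RNA from bulk cultures, fewer cells that express a gene and less RNA per cell cannot be told apart.

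The direction of these calls followed base composition. All 10 tested members with a transcript GC content of at least 60% were called higher, as were 68.7% of all tested genes in that range. Of the 28 members under 45% GC, 22 were called lower and 1 (CHMP1B) higher, and 54% of all tested genes in that range were called lower. The Spearman correlation of fold change with GC content was 0.856 across the 72 members and 0.744 across 14809 genes; genes share the same 6 libraries and are no independent replicates. For each library, the log2 deviation from the gene mean over the 6 libraries was fitted on GC. The slope per 10 percentage points was 0.269, 0.233 and 0.185 in the shFITM2 libraries, and −0.275, −0.347 and −0.065 in the shCTRL libraries. These slopes compare libraries with one another, and their signs do not give the trend of expression with GC within a library. The slopes of the groups did not overlap, and shCTRL replicate 3 lay between the other shCTRL libraries and shFITM2. The part of this trend in the results was not tested, so each member is given in a second fit that takes each library's GC trend out as an offset.

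With the GC offset, 20 of the 72 were called, 7 higher and 13 lower, and 29.2% of all genes with a GC value were called, 11.8% higher and 17.4% lower. The median log2 fold change was then −0.07 for the members and −0.03 for all genes, and the Spearman correlation with GC was 0.054 for the members. In both fits and in the same direction, 11 members were called: SNX33, VPS72, CHMP1B, VPS4A and SNX12 higher, and VPS50, VPS54, VPS26A, SNX6, SNX5 and SNX27 lower. Over all genes 17.9% were called in this way, 7.91% higher and 10% lower. VPS28 and VPS51 were called in opposite directions, higher in the group fit and lower with the offset; 2.15% of all genes were called in opposite directions in the 2 fits. A further 33 members were called in the group fit alone, 7 with the offset alone and 19 in neither. The number called with the offset was 9, 11 and 12 without shFITM2 replicates 1, 2 and 3, was 15 without either shCTRL replicate 1 or 2, and was 33 without shCTRL replicate 3. A biological change that runs with GC content is taken out by the offset as well.

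**Figure D1:**
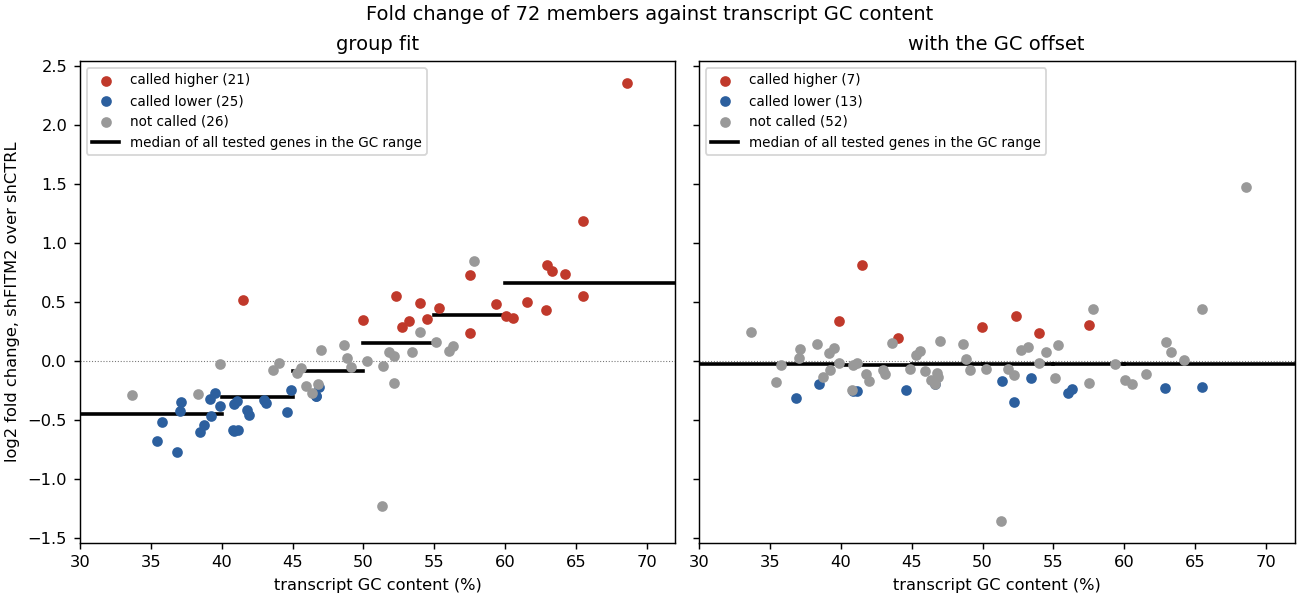
Log2 fold change (shFITM2 over shCTRL) of the 72 tested members against the GC content of 1 transcript per gene in percent, in the group fit and with the GC offset. Points are members coloured by their call, and horizontal lines are medians of all tested genes in each GC range; the members run from low to high with GC in the group fit, where all 10 at 60% GC or above were called higher, and show no such run with the offset.

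The coding sequences of 2 pairs of paralogs show how closely related proteins can differ in base composition. For each pair the 40-codon window with the most identical bases in the GENCODE 29 coding sequences (GRCh38) is printed. Capitals mark every G or C at the last base of a codon, a position where bases can often change without changing the amino acid.
VPS4A: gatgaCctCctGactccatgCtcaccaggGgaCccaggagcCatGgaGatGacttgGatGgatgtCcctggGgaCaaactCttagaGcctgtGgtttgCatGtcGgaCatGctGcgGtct
VPS4B: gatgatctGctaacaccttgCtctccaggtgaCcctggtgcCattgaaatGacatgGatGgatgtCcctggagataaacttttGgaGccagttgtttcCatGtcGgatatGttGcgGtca
VPS26A: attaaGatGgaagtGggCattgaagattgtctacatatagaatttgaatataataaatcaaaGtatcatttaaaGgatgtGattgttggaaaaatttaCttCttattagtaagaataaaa
VPS26B: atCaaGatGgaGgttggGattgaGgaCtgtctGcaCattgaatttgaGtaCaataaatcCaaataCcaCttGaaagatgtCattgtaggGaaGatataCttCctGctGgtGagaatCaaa
The VPS4A window (chromosome 16, coding bases 1111 to 1230) and the VPS4B window (chromosome 18, coding bases 1132 to 1251) share 98 of 120 bases, or 81.7%, yet 25 of 40 codons end in G or C in VPS4A and 16 in VPS4B. The VPS26A window (chromosome 10, coding bases 490 to 609) and the VPS26B window (chromosome 11, coding bases 484 to 603) share 92 bases, or 76.7%, with 9 such codons in VPS26A and 24 in VPS26B. Over the whole coding sequence the share of last codon bases that are G or C was 73.1% in VPS4A and 34.6% in VPS4B, and 30.8% in VPS26A and 78.0% in VPS26B. In each of these 2 chosen pairs the paralog with more such codons had the higher log2 fold change in the group fit. CHMP1A and CHMP1B, with shares of 86.8% and 72%, had nearly equal log2 fold changes in that fit, 0.50 and 0.51. Whether codon composition bears on the fold changes was not tested.

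Retromer is the coat that returns receptors from endosomes to the Golgi and the cell surface. In the group fit 3 of its 4 genes were called lower and none higher, where 24.5% of all tested genes were lower. Those 3 lie under 45% GC, where 54% of all tested genes were called lower. VPS26A (ENSG00000122958, chromosome 10, 69123512 to 69172861, plus strand, GRCh38), an arrestin-like subunit that binds sorting nexins, had 93.4, 91.1 and 92.2 CPM in the shFITM2 libraries, against 146, 150.3 and 121 CPM in the shCTRL libraries. Every shFITM2 library lay below every shCTRL library. Its log2 fold change was −0.59 ± 0.086 in the group fit and −0.26 ± 0.056 with the offset (SE; adjusted p = 0.000286 and 0.00249, edgeR), and both calls were kept without each library in turn. With GC taken from all coding transcripts of each gene instead of 1, it was −0.13 (adjusted p = 0.092) and not called. VPS35, the scaffold of the coat, fell to 220.4 ± 3.98 CPM in shFITM2, against 294 ± 36.3 CPM in shCTRL (mean ± SD of 3 libraries each), and had −0.42 in the group fit and −0.11 with the offset (adjusted p = 0.00205 and 0.115), the second not called. VPS29, which holds the other end of VPS35, had −0.27 and 0.11, called lower in the group fit and not called with the offset. VPS29 was called higher with GC from all coding transcripts (log2 0.16, adjusted p = 0.0408).

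VPS26B, the other form of VPS26, had 80.9, 83.8 and 76.96 CPM in shFITM2, against 74.8, 68.3 and 78.9 CPM in shCTRL. These libraries overlapped, and it was not called in the group fit (log2 fold change 0.12 ± 0.079, adjusted p = 0.216). With the offset it was called lower, at −0.24 ± 0.057 (adjusted p = 0.00455), near the value of VPS26A. VPS29 lost its call in the group fit without shFITM2 replicate 2 or shCTRL replicate 1 (log2 −0.25 to −0.24, adjusted p 0.0522 to 0.0576). Leaving out shCTRL replicate 3 gave VPS35 a call with the offset, lower (log2 −0.17, adjusted p = 0.000612). Without shCTRL replicate 3, VPS26B was called higher in the group fit (log2 0.16, adjusted p = 0.0351). Retriever, a relative of retromer that recycles integrins and LDL receptors with SNX17, had neither of its own subunits called: VPS26C had 0.14 and 0.14, and VPS35L 0.02 and 0.02. VPS26C was called higher with the offset once shCTRL replicate 3 was left out (log2 0.19, adjusted p = 0.033). VPS35L shares 17.2% of its exon bases with KNOP1 on the opposite strand, which had more reads and was called higher in both fits, at 0.32 and 0.30.

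**Figure D2:**
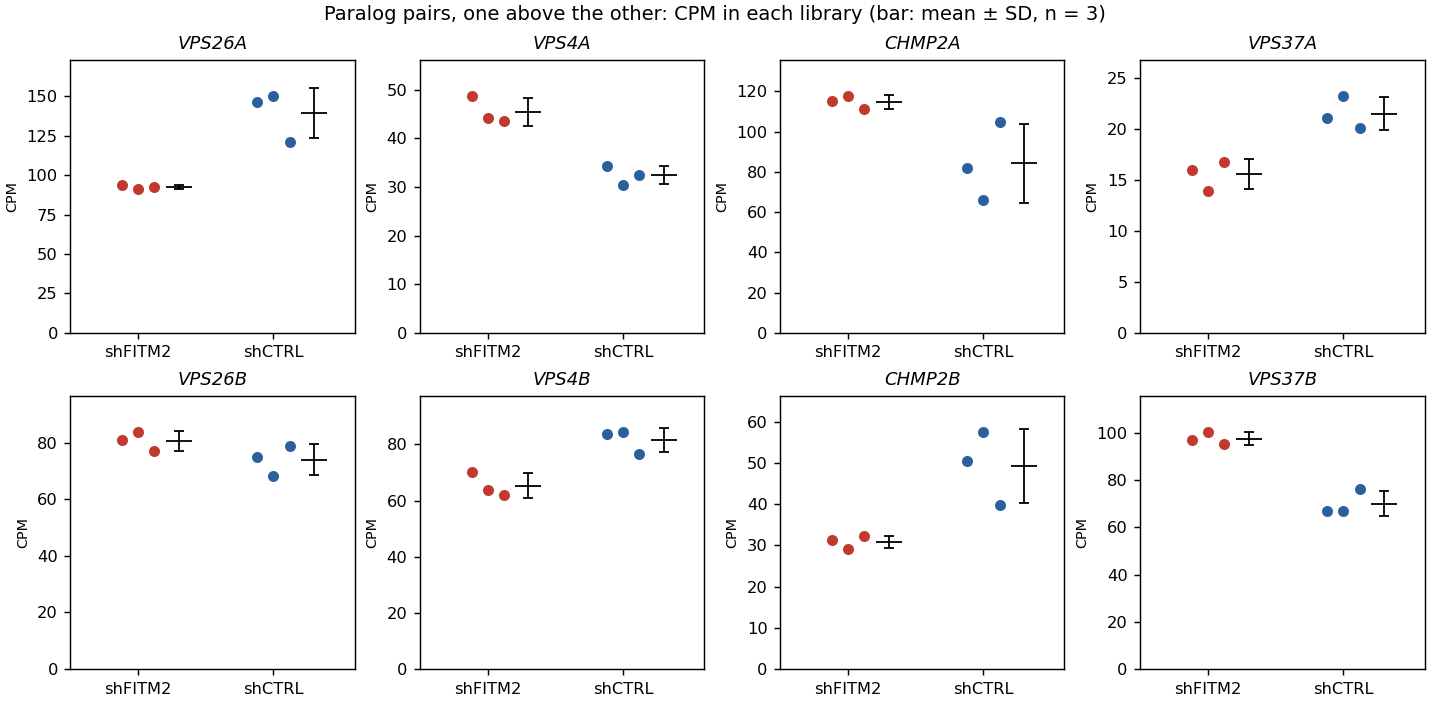
CPM in each library (points) with the mean and SD (bars) of shFITM2 and shCTRL for the paralogs VPS26A and VPS26B, VPS4A and VPS4B, CHMP2A and CHMP2B, and VPS37A and VPS37B. All 3 shFITM2 libraries lie above shCTRL for VPS4A, CHMP2A and VPS37B and below it for VPS26A, VPS4B, CHMP2B and VPS37A, and the VPS26B groups overlap.

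HOPS and CORVET, the tethers of late and early endosomes, had calls in both directions. Of 8 genes 3 were higher and 2 lower in the group fit, where 24.2% and 24.5% of all tested genes were. The shared core subunits VPS11, VPS18 and VPS16 were called higher, with log2 fold changes of 0.33, 0.37 and 0.24 (adjusted p = 0.00496, 0.00913 and 0.0478). VPS41, a HOPS subunit that reaches the lysosomal membrane, and VPS8, a CORVET subunit, were called lower, at −0.37 and −0.36 (adjusted p = 0.00517 and 0.017). VPS11 averaged 62.3 ± 2.17 CPM in shFITM2 and 49.5 ± 3.14 CPM in shCTRL, and VPS41 68.9 ± 2.05 CPM in shFITM2 and 88.8 ± 9.89 CPM in shCTRL (mean ± SD of 3 libraries each). With the offset none of these 5 was called, at 0.12, −0.20, −0.19, −0.03 and −0.11. VPS39, the HOPS subunit that binds RAB7, was then called lower at −0.17 (adjusted p = 0.0337). VPS39 was not called with GC from all coding transcripts (log2 −0.06, adjusted p = 0.485) and GC and length in the offset (log2 −0.14, adjusted p = 0.0733).

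The remaining core subunit gene, VPS33A, and its relative VPS33B, which works with VIPAS39, were called in neither fit. VPS33B shares 52.1% of its exon bases with a gene on the same strand, AC068831.7, that had a mean of 232 reads per library against 53.7 for VPS33B, and VPS16 shares 16.6% with PTPRA on the same strand, so their counts are uncertain. For VPS16, the call in the group fit was not kept without shFITM2 replicates 1, 2 or 3 or shCTRL replicates 1, 2 or 3 (log2 0.22 to 0.27, adjusted p 0.052 to 0.155). VPS16 was not called with DESeq2's Wald test (log2 0.24, adjusted p = 0.1), library totals (log2 0.23, adjusted p = 0.0553) and no expression filter (log2 0.25, adjusted p = 0.107). The VPS8 call in the group fit was lost without shFITM2 replicates 1 or 2 or shCTRL replicate 1 (log2 −0.33 to −0.27, adjusted p 0.0748 to 0.0913). VPS18 lost its call in the group fit without shCTRL replicate 1 (log2 0.27, adjusted p = 0.0528). For VPS39, the call with the offset was not kept without shFITM2 replicates 1, 2 or 3 or shCTRL replicates 1 or 2 (log2 −0.18 to −0.13, adjusted p 0.0621 to 0.152). Without shCTRL replicate 3, VPS16 was called lower with the offset (log2 −0.26, adjusted p = 0.0362). VPS18 was called lower with the offset without shCTRL replicates 1 or 3 (log2 −0.26 to −0.21, adjusted p 0.0165 to 0.0273).

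GARP receives endosomal vesicles at the trans-Golgi network, and EARP, in which VPS50 takes the place of VPS54, works at recycling endosomes. VPS50 (ENSG00000004766, chromosome 7, 93232340 to 93361121, plus strand, GRCh38) had the largest fall in the group fit among called members. It had 32.7, 33.4 and 32.97 CPM in the shFITM2 libraries, against 54.9, 64.6 and 49.6 CPM in the shCTRL libraries. The shFITM2 libraries lay close together and all below shCTRL, at 58.6% of the shCTRL mean. The log2 fold change was −0.77 ± 0.10 in the group fit and −0.31 ± 0.072 with the offset (SE; adjusted p = 0.000173 and 0.00397, edgeR), and it was called without each library in turn in both fits.

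VPS54, the GARP counterpart, had 32.9, 36.0 and 35.1 CPM in shFITM2, against 53.1, 56.8 and 48.04 CPM in shCTRL, again with no overlap. Its log2 fold change was −0.60 ± 0.090 and −0.19 ± 0.068 with the offset (adjusted p = 0.000334 and 0.044). For VPS54, the call with the offset was not kept without shFITM2 replicates 1, 2 or 3 or shCTRL replicates 1 or 2 (log2 −0.22 to −0.18, adjusted p 0.0735 to 0.141). VPS54 was not called with GC from all coding transcripts (log2 −0.18, adjusted p = 0.0552) and GC and length in the offset (log2 −0.17, adjusted p = 0.0748). VPS51, the subunit shared by GARP and EARP, was called in opposite directions: it had 197, 191 and 186 CPM in shFITM2, against 121, 104 and 168 CPM in shCTRL. All shFITM2 libraries were above shCTRL, and shCTRL replicate 3 was the nearest. The log2 fold change was 0.55 ± 0.16 in the group fit (adjusted p = 0.0284) and −0.22 ± 0.048 with the offset (adjusted p = 0.0028), at a transcript GC content of 65.5%. The VPS51 call in the group fit was lost without shFITM2 replicates 1, 2 or 3 or shCTRL replicate 1 (log2 0.49 to 0.57, adjusted p 0.0521 to 0.0768). The shared subunits VPS52 and VPS53 were called in neither fit, at 0.05 and 0.00 in the group fit and −0.12 and −0.07 with the offset.

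ESCRT-I and ESCRT-II gather ubiquitinated cargo before the membrane is cut. All 7 of their genes found by name were called in the group fit, 5 higher and 2 lower. Over all tested genes 48.7% were called, 24.2% higher and 24.5% lower. VPS28, VPS37C and VPS37D have at least 60% GC, where 68.7% of all tested genes were called higher. VPS37B has 59.3% GC, and at 55 to 60% 1133 of 2244 genes were higher. VPS25 has 54.5% GC, and at 50 to 55% 602 of 2311 were. The 2 lower genes lie under 45% GC, where 54% of all tested genes were called lower. VPS37B, VPS37C and VPS37D, alternative ESCRT-I subunits, had log2 fold changes of 0.48, 0.38 and 2.35, and the ESCRT-II subunit VPS25 had 0.36 (adjusted p = 0.000507, 0.0047, 0.0068 and 0.00276). Their paralog VPS37A had −0.46 and the ESCRT-II subunit VPS36 −0.38 (adjusted p = 0.00489 and 0.00387). The VPS37 paralogs thus moved in opposite directions: VPS37B averaged 97.7 ± 2.64 CPM in shFITM2 and 70.03 ± 5.34 CPM in shCTRL, and VPS37A 15.6 ± 1.46 CPM in shFITM2 and 21.5 ± 1.61 CPM in shCTRL (mean ± SD of 3 libraries each). VPS37D had the largest fold change of the family, but rests on 11, 11 and 14 reads in shFITM2, against 4, 1 and 2 in shCTRL.

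With the offset, 6 of the 7 were not called, with VPS37B at −0.03, VPS25 at 0.07, VPS36 at −0.01, VPS37C at −0.16, VPS37A at −0.08 and VPS37D at 1.47. VPS37A was called lower with GC from all coding transcripts (log2 −0.32, adjusted p = 0.0241). VPS28, the ESCRT-I core subunit that contacts ESCRT-II, changed direction. It had 85.6, 85.4 and 86.5 CPM in shFITM2, against 56.01, 58.7 and 76.6 CPM in shCTRL, with no overlap and shCTRL replicate 3 nearest to shFITM2. The log2 fold change was 0.43 ± 0.11 in the group fit (adjusted p = 0.0069) and −0.23 ± 0.061 with the offset (adjusted p = 0.00948), at 62.9% GC. VPS28 lost its call with the offset without shFITM2 replicates 1 or 2 (log2 −0.23 to −0.21, adjusted p 0.0507 to 0.0668). VPS28 was not called with GC from all coding transcripts (log2 −0.15, adjusted p = 0.0899). Leaving out shCTRL replicate 3 gave VPS37C a call with the offset, lower (log2 −0.20, adjusted p = 0.0238).

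ESCRT-III and the VPS4 ATPases, which cut and recycle the filament, had 5 of 13 genes called higher and 2 lower in the group fit. With the offset 4 were higher and 1 lower. Over all genes the shares were 24.2% higher and 24.5% lower in the group fit, and 11.8% and 17.4% with the offset. CHMP1B (ENSG00000255112, chromosome 18, 11851396 to 11854449, plus strand, GRCh38), a late-acting subunit that recruits spastin and VPS4, was the one member under 45% GC that was called higher in the group fit. It had 83.6, 85.3 and 82.1 CPM in the shFITM2 libraries, against 54.8, 51.4 and 69.6 CPM in the shCTRL libraries. All shFITM2 libraries were above shCTRL, and shCTRL replicate 3 was the highest control. The log2 fold change was 0.51 ± 0.10 in the group fit and 0.82 ± 0.15 with the offset (SE; adjusted p = 0.00199 and 0.0108, edgeR), and both calls were kept without each library in turn. Its transcript has 41.5% GC.

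VPS4A had 48.8, 44.2 and 43.5 CPM in shFITM2, against 34.3, 30.5 and 32.6 CPM in shCTRL, and VPS4B had 70.3, 63.7 and 61.98 CPM in shFITM2, against 83.9, 84.5 and 76.8 CPM in shCTRL. The groups overlapped for neither ATPase, and they moved in opposite directions in the group fit, VPS4A by 0.49 ± 0.089 and VPS4B by −0.32 ± 0.079 (adjusted p = 0.00102 and 0.00585). With the offset VPS4A was 0.23 ± 0.076 and still called higher (adjusted p = 0.0301), and VPS4B was 0.07 ± 0.068 and not called (adjusted p = 0.512). The VPS4A call with the offset was lost without shFITM2 replicates 1, 2 or 3 or shCTRL replicate 2 (log2 0.20 to 0.26, adjusted p 0.0628 to 0.146). VPS4A shares 22.0% of its exon bases with COG8 on the opposite strand, which had 0.30 in the group fit and 0.09 with the offset, not called in either. Whether the reads were counted by strand is not given in the sources used here.

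CHMP2A and CHMP2B, subunits that bind VPS4, were also called in opposite directions in the group fit. CHMP2A had 115, 118 and 111 CPM in shFITM2, against 81.8, 66.04 and 105 CPM in shCTRL (log2 fold change 0.45, adjusted p = 0.0341). CHMP2B had 31.2, 29.1 and 32.1 CPM in shFITM2, against 50.4, 57.6 and 39.7 CPM in shCTRL (−0.68, adjusted p = 0.00115). Neither was called with the offset, at 0.14 and −0.18. CHMP2A lost its call in the group fit without shFITM2 replicates 1, 2 or 3 or shCTRL replicate 1 (log2 0.42 to 0.47, adjusted p 0.0666 to 0.0935). Leaving out shCTRL replicate 3 gave CHMP2A a call with the offset, higher (log2 0.27, adjusted p = 0.000262). Without shCTRL replicate 3, CHMP2B was called lower with the offset (log2 −0.25, adjusted p = 0.00532). CHMP2B was called lower with GC from all coding transcripts (log2 −0.28, adjusted p = 0.0279). CHMP1A and CHMP6 were called higher in the group fit, at 0.50 and 0.74 (adjusted p = 0.0004 and 0.00319), and not with the offset, at −0.11 and 0.01. CHMP1A was called lower with the offset once shCTRL replicate 3 was left out (log2 −0.17, adjusted p = 0.00167).

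The offset brought calls for 3 further subunits whose CPM overlapped between the groups. CHMP5 had −0.02 in the group fit and 0.34 ± 0.067 with the offset (adjusted p = 0.00134), and CHMP3 −0.02 and 0.20 ± 0.060 (adjusted p = 0.0219). CHMP4B, the main filament-forming subunit and the most abundant member per length, had 0.08 and −0.14 ± 0.051 (adjusted p = 0.047). For CHMP3, the call with the offset was not kept without shFITM2 replicates 1 or 3 (log2 0.15 to 0.21, adjusted p 0.0502 to 0.139). CHMP3 was not called with GC from all coding transcripts (log2 0.14, adjusted p = 0.104). The CHMP4B call with the offset was lost without shFITM2 replicates 1, 2 or 3 or shCTRL replicates 1 or 3 (log2 −0.16 to −0.09, adjusted p 0.0751 to 0.202). CHMP4B was not called with GC from all coding transcripts (log2 −0.10, adjusted p = 0.201). CHMP4B was called higher in the group fit once shCTRL replicate 3 was left out (log2 0.16, adjusted p = 0.00503). CHMP7, which acts at the nuclear envelope, and CHMP4C were called in neither fit. Leaving out shCTRL replicate 2 gave CHMP7 a call in the group fit, higher (log2 0.36, adjusted p = 0.0186). CHMP4A had a mean of 13.2 reads and shares 68.8% of its exon bases with AL096870.2 on the same strand, so its value of −1.23 (not called, adjusted p = 0.0765) is uncertain. Without shCTRL replicate 1, CHMP4A was called lower in the group fit (log2 −1.58, adjusted p = 0.0313). CHMP4A was called lower with the offset without shCTRL replicates 1 or 3 (log2 −1.71 to −1.40, adjusted p 0.0287 to 0.0466).

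**Figure D3:**
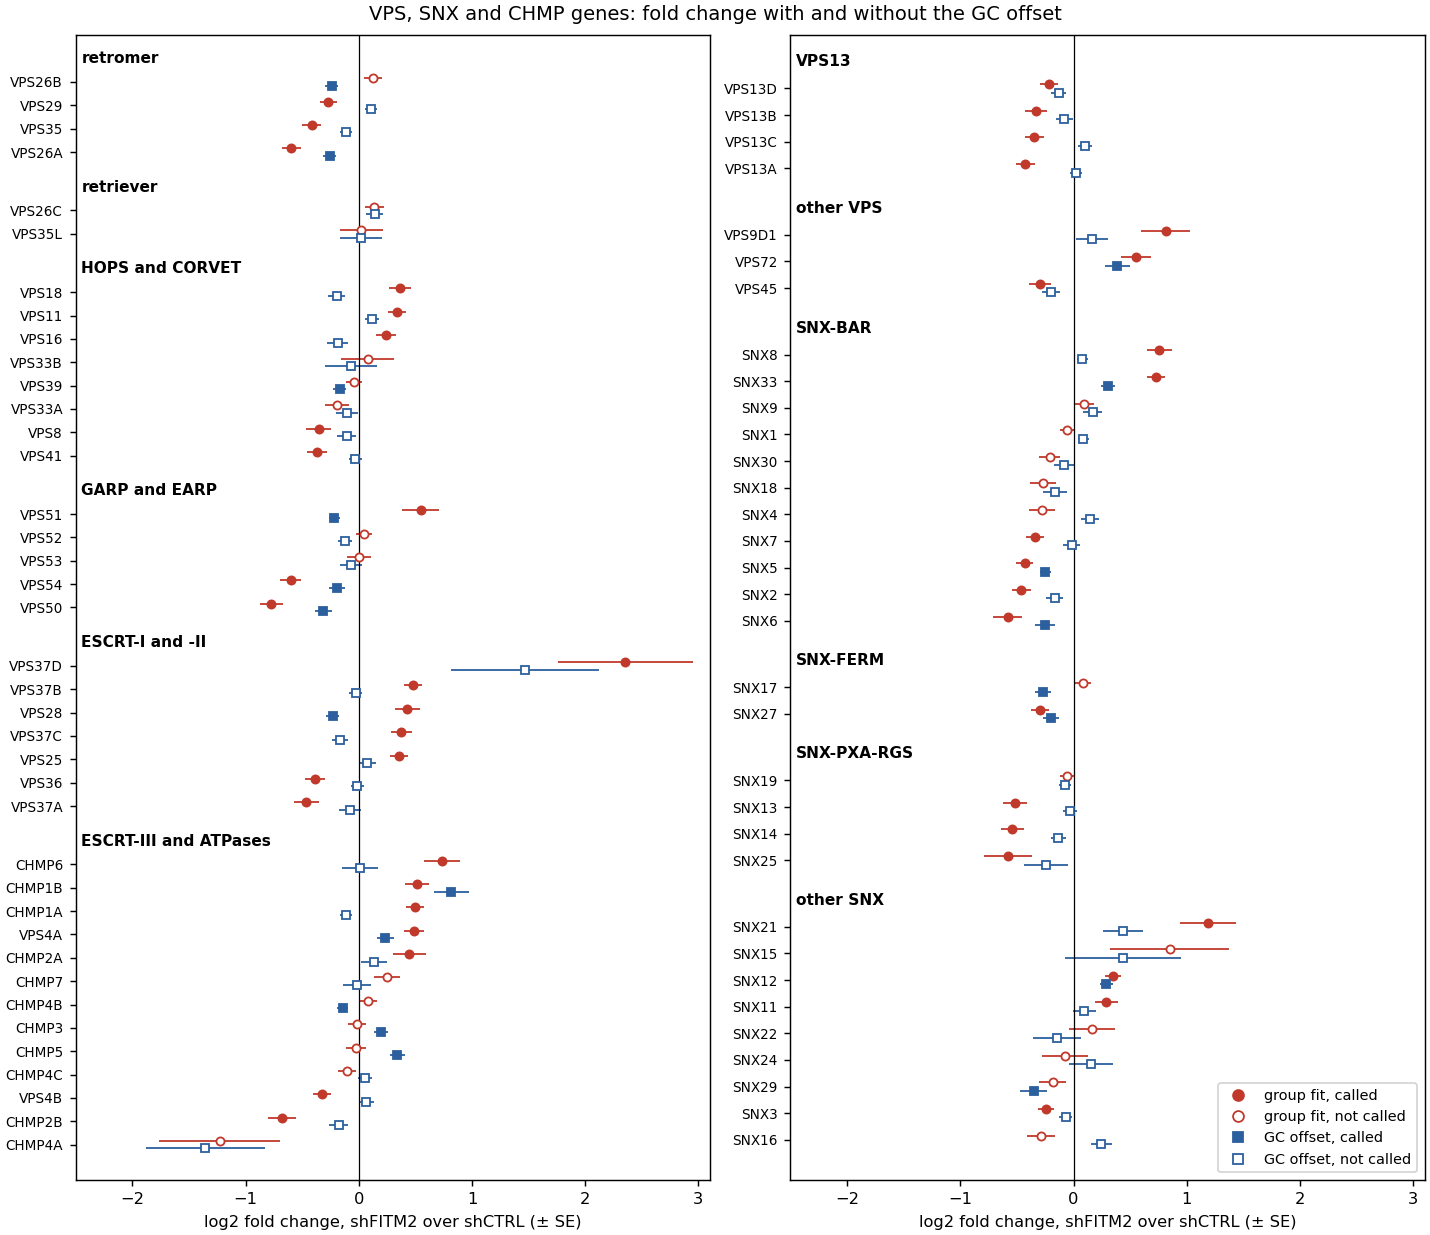
Log2 fold change (shFITM2 over shCTRL, bars ± SE) of the 72 tested members by complex, in the group fit and with the GC offset; filled symbols passed an adjusted p under 0.05. All 7 ESCRT-I and -II genes and all 4 VPS13 genes are filled in the group fit, and 1 of 7 and none of 4 with the offset. Over all genes 48.7% were called in the group fit and 29.2% with the offset.

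The VPS13 proteins are rod-shaped lipid channels at membrane contacts, and VPS13A and VPS13C are also found at lipid droplets. All 4 were called lower in the group fit, where 24.5% of all tested genes were. VPS13A, VPS13B and VPS13C lie under 45% GC, where 54% of all tested genes were called lower, and VPS13D has 46.9% GC. VPS13A had 89.6, 97.8 and 107 CPM in shFITM2, against 126, 144 and 126 CPM in shCTRL, and VPS13C had 48.9, 52.9 and 53.4 CPM in shFITM2, against 62.8, 70.9 and 63.5 CPM in shCTRL. Every shFITM2 library was below every shCTRL library for both. Their log2 fold changes were −0.43 ± 0.086 and −0.35 ± 0.082 (adjusted p = 0.00185 and 0.00471), and VPS13B had −0.33 and VPS13D −0.22 (adjusted p = 0.012 and 0.0443). With the offset none was called, at 0.02, 0.10, −0.08 and −0.13. For VPS13B, the call in the group fit was not kept without shFITM2 replicates 1 or 2 (log2 −0.31, adjusted p 0.0573 to 0.0602). The VPS13D call in the group fit was lost without shFITM2 replicates 1, 2 or 3 or shCTRL replicates 1 or 2 (log2 −0.22 to −0.17, adjusted p 0.0777 to 0.171). VPS13D was not called with DESeq2's Wald test (log2 −0.21, adjusted p = 0.0866), DESeq2's size factors (log2 −0.21, adjusted p = 0.0507) and no expression filter (log2 −0.21, adjusted p = 0.0978). VPS13D was called lower with the offset once shCTRL replicate 3 was left out (log2 −0.18, adjusted p = 0.0325).

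The rule by name also takes in VPS72, a subunit of the SRCAP and TIP60 chromatin complexes that place the histone variant H2A.Z, so it is a sorting gene by name alone. VPS72 was called higher in both fits, with 46.99, 42.3 and 41.3 CPM in shFITM2, against 30.04, 23.4 and 35.7 CPM in shCTRL, and log2 fold changes of 0.55 ± 0.14 and 0.38 ± 0.11 (adjusted p = 0.00659 and 0.0196). For VPS72, the call with the offset was not kept without shFITM2 replicates 1 or 2 or shCTRL replicate 1 (log2 0.34 to 0.40, adjusted p 0.0533 to 0.0922). VPS9D1 was higher in the group fit only, at 0.81 and 0.16 (adjusted p = 0.0112 and 0.422); 15.1% of its exon bases are shared with VPS9D1-AS1 on the opposite strand. VPS45, which guides SNARE proteins in fusion of endosomes, was lower in the group fit only, at −0.29 and −0.20 (adjusted p = 0.0235 and 0.0869). The VPS45 call in the group fit was lost without shFITM2 replicates 1 or 3 or shCTRL replicate 1 (log2 −0.28 to −0.24, adjusted p 0.0784 to 0.102). VPS45 was called lower with the offset once shCTRL replicate 3 was left out (log2 −0.24, adjusted p = 0.0202).

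Sorting nexins with a BAR domain bend membranes into tubules. Of 12 such genes 11 were tested. In the group fit 2 were called higher and 4 lower, where 24.2% and 24.5% of all tested genes were. With the offset 1 was higher and 2 were lower, where 11.8% and 17.4% of all genes were. SNX33 (ENSG00000173548, chromosome 15, 75647906 to 75662301, plus strand, GRCh38), a relative of SNX9 that binds dynamin and the WASP protein, had the smallest p of all members in the group fit. It had 79.3, 80.3 and 72.5 CPM in the shFITM2 libraries, against 46.8, 45.2 and 48.4 CPM in the shCTRL libraries, at 165% of the shCTRL mean. The groups were far apart relative to their spread. Its log2 fold change was 0.73 ± 0.077 in the group fit and 0.30 ± 0.063 with the offset (SE; adjusted p = 6.50e-05 and 0.00192, edgeR), called without each library in turn in both. SNX33 shares 10.0% of its exon bases with IMP3 on the opposite strand, which had 744 reads per library against 1102 for SNX33 and was not called, at −0.28 and −0.81. The relatives SNX9 and SNX18 were called in neither fit. Leaving out shCTRL replicates 2 or 3 gave SNX18 a call in the group fit, lower (log2 −0.37 to −0.25, adjusted p 0.0209 to 0.0445). SNX18 was called lower with GC from all coding transcripts (log2 −0.61, adjusted p = 0.00055). SNX18 also has 16 pseudogenes in the table.

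SNX5 and SNX6 form pairs with SNX1 or SNX2 that carry the mannose 6-phosphate receptor out of endosomes. SNX5 (ENSG00000089006, chromosome 20, 17941597 to 17968980, minus strand, GRCh38) had 154, 149 and 161 CPM in the shFITM2 libraries, against 211, 222 and 195 CPM in the shCTRL libraries, with no overlap. Its log2 fold change was −0.43 ± 0.071 in the group fit and −0.25 ± 0.048 with the offset (SE; adjusted p = 0.000574 and 0.00106, edgeR), and it was called without each library in turn in both fits. With GC from all coding transcripts the value was −0.59 (adjusted p = 1.65e-05). SNX6 had 43.7, 48.4 and 47.4 CPM in shFITM2, against 76.9, 77.3 and 54.4 CPM in shCTRL, and values of −0.58 ± 0.13 and −0.25 ± 0.090 (adjusted p = 0.00387 and 0.0492). The SNX6 call with the offset was lost without shFITM2 replicates 1, 2 or 3 or shCTRL replicates 1 or 2 (log2 −0.28 to −0.18, adjusted p 0.0901 to 0.201). SNX6 was not called with GC from all coding transcripts (log2 −0.25, adjusted p = 0.0518) and GC and length in the offset (log2 −0.24, adjusted p = 0.0554). SNX2 was called lower in the group fit only, at −0.46 and −0.17 (adjusted p = 0.000991 and 0.106), and SNX1 in neither, at −0.06 and 0.09. SNX1 was called higher with the offset once shCTRL replicate 3 was left out (log2 0.11, adjusted p = 0.044).

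SNX8, at 63.3% GC, had 161, 148 and 142 CPM in shFITM2, against 83.2, 77.5 and 106 CPM in shCTRL, the highest ratio of the BAR nexins. It was called in the group fit, at 0.76 ± 0.11 (adjusted p = 0.000347), and not with the offset, at 0.08 ± 0.049 (adjusted p = 0.256). SNX8 was called higher with GC from all coding transcripts (log2 0.28, adjusted p = 0.00221). SNX7, which pairs with SNX4 in autophagy, was lower in the group fit only, at −0.34 and −0.02. SNX4 and SNX30 were called in neither fit. Leaving out shCTRL replicate 3 gave SNX4 a call in the group fit, lower (log2 −0.41, adjusted p = 9.30e-06). SNX4 was called lower with no expression filter (log2 −0.26, adjusted p = 0.0211). Without shCTRL replicate 3, SNX30 was called lower in the group fit (log2 −0.26, adjusted p = 0.0247).

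**Figure D4:**
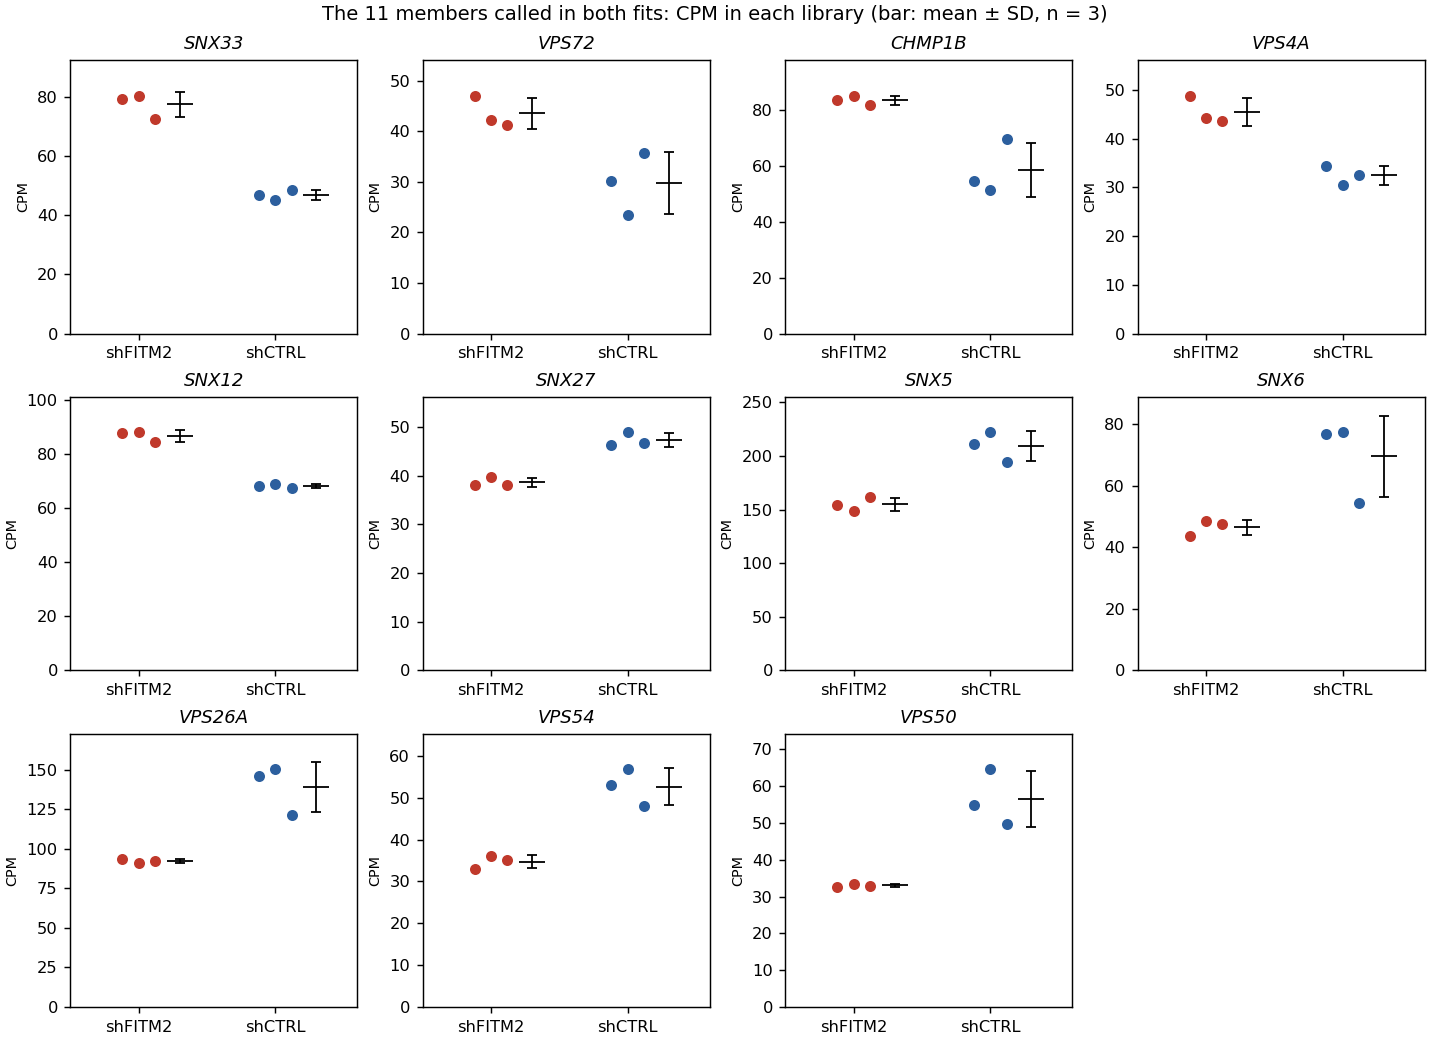
CPM in each library (points) with the mean and SD (bars) of shFITM2 and shCTRL for the 11 members called in the same direction in both fits, 5 higher and 6 lower. The shFITM2 and shCTRL libraries do not overlap for any of them, but the 11 were picked by their calls in these same libraries. Over all genes 17.9% were called in this way, and the groups do not overlap for 59% of all tested genes.

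The nexins with a FERM domain pick cargo for recycling: SNX27 links PDZ-binding receptors to retromer, and SNX17 links LDL receptor relatives and integrins to retriever. SNX27 had 38.04, 39.6 and 38.1 CPM in shFITM2, against 46.4, 48.8 and 46.7 CPM in shCTRL, with no overlap, and values of −0.29 ± 0.078 and −0.20 ± 0.068 (adjusted p = 0.00907 and 0.0393). SNX27 lost its call with the offset without shFITM2 replicates 1, 2 or 3 or shCTRL replicates 1 or 2 (log2 −0.22 to −0.18, adjusted p 0.0564 to 0.137). SNX27 was not called with GC from all coding transcripts (log2 −0.10, adjusted p = 0.31) and GC and length in the offset (log2 −0.18, adjusted p = 0.0545). SNX17 was not called in the group fit, at 0.09 (adjusted p = 0.327), and was lower with the offset, at −0.27 ± 0.068 (adjusted p = 0.00738). For SNX17, the call with the offset was not kept without shFITM2 replicate 1 (log2 −0.25, adjusted p = 0.0581).

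Of the 4 nexins with PXA and RGS domains, which are anchored in membranes, 3 were called lower in the group fit and none with the offset. Over all genes 24.5% were lower in the group fit and 17.4% with the offset. The 3 called genes lie under 45% GC, where 54% of all tested genes were lower in the group fit. SNX14, which sits at contacts of the endoplasmic reticulum with lipid droplets, had 47.5, 51.4 and 52.7 CPM in shFITM2, against 75.7, 82.6 and 61.9 CPM in shCTRL. SNX13 had 56.4, 58.8 and 62.8 CPM in shFITM2, against 81.7, 99.6 and 73.97 CPM in shCTRL. For both, all shFITM2 libraries were below shCTRL. Their log2 fold changes were −0.54 ± 0.10 and −0.52 ± 0.10 in the group fit (adjusted p = 0.00146 and 0.00189), and −0.14 ± 0.067 and −0.03 ± 0.062 with the offset (adjusted p = 0.145 and 0.755). SNX25 had −0.58 and −0.24, and its pseudogene held reads equal to 34.7% of its own, so its count is uncertain. SNX19 had −0.05 and −0.07 and was not called. The SNX25 call in the group fit was lost without shFITM2 replicates 1 or 2 or shCTRL replicates 1 or 2 (log2 −0.63 to −0.41, adjusted p 0.0656 to 0.151). SNX25 was not called with DESeq2's Wald test (log2 −0.58, adjusted p = 0.0532). SNX14 was called lower with the offset once shCTRL replicate 3 was left out (log2 −0.19, adjusted p = 0.0101).

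Among the remaining nexins, most of which consist of little more than the lipid-binding PX domain, 9 of 11 were tested. In the group fit 3 were higher and 1 lower, where 24.2% and 24.5% of all tested genes were. With the offset 1 was higher and 1 lower, where 11.8% and 17.4% of all genes were. SNX12 (ENSG00000147164, chromosome X, 71056332 to 71073426, minus strand, GRCh38) had 87.9, 88.1 and 84.4 CPM in the shFITM2 libraries, against 68.2, 68.96 and 67.4 CPM in the shCTRL libraries. The spread within each group was small, and the groups were apart. Its log2 fold change was 0.35 ± 0.068 in the group fit and 0.29 ± 0.055 with the offset (SE; adjusted p = 0.00163 and 0.000968, edgeR), kept without each library in turn, and 0.15 with GC from all coding transcripts, where it was not called (adjusted p = 0.063). SNX3, its close paralog and the retromer adaptor for the Wnt carrier Wntless, was called in the opposite direction in the group fit, with 76.7, 77.8 and 73.8 CPM in shFITM2, against 93.6, 88.8 and 87.6 CPM in shCTRL. Its value was −0.24 ± 0.070 (adjusted p = 0.0136), and −0.07 ± 0.056 with the offset (adjusted p = 0.387). For SNX3, the call in the group fit was not kept without shFITM2 replicates 1 or 3 or shCTRL replicate 1 (log2 −0.25 to −0.22, adjusted p 0.0501 to 0.0659).

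SNX21 had 8.45, 8.34 and 7.43 CPM in shFITM2, against 2.76, 2.596 and 5.34 CPM in shCTRL, where replicate 3 was the highest. It was called in the group fit, at 1.19 ± 0.25 (adjusted p = 0.00248), and not with the offset, at 0.44 ± 0.17 (adjusted p = 0.0707). Without shCTRL replicate 3, SNX21 was called higher with the offset (log2 0.62, adjusted p = 0.012). SNX21 shares 36.6% of its exon bases with ACOT8 on the opposite strand, which had a mean of 624 reads per library against 103 for SNX21 and was not called, at 0.32 and −0.19. SNX11 was higher in the group fit only, at 0.29 and 0.10 (adjusted p = 0.0364 and 0.526), and SNX29 lower with the offset only, at −0.18 and −0.35 (adjusted p = 0.222 and 0.0368). SNX11 lost its call in the group fit without shFITM2 replicates 1, 2 or 3 or shCTRL replicates 1 or 3 (log2 0.20 to 0.33, adjusted p 0.0544 to 0.126). For SNX29, the call with the offset was not kept without shFITM2 replicates 1, 2 or 3 or shCTRL replicates 1 or 2 (log2 −0.37 to −0.31, adjusted p 0.0885 to 0.128). SNX15, SNX16, SNX22 and SNX24 were called in neither fit; SNX15 overlaps the read-through locus ARL2-SNX15 and SNX22 overlaps PPIB, which had a mean of 2729.5 reads against 54.5 for SNX22. Without shCTRL replicate 3, SNX16 was called lower in the group fit (log2 −0.39, adjusted p = 0.00341).

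Of the 11 members called in the same direction in both fits, 6 kept both calls without each of the 6 libraries in turn: CHMP1B, SNX33 and SNX12 higher, and VPS50, SNX5 and VPS26A lower. They are 8.33% of the 72, against 9.49% of all tested genes, so the share is near that of all genes. Of these 6, CHMP1B, SNX33, VPS50 and SNX5 were also called with GC and length in the offset and with GC from all coding transcripts. In the group fit alone, 34 of 46 calls (73.9%) were kept without each library in turn, against 67% of the 7205 calls among all tested genes. With the offset alone, 9 of 20 (45%) were kept, against 59.1% of 4275.

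Per kilobase of exon, the tested members had a median of 8.86 CPM in shFITM2 and 9.35 CPM in shCTRL. CHMP4B was the highest, at 161 ± 4.76 CPM per kb in shFITM2 and 152 ± 16.8 in shCTRL (SD, n = 3 each), apart from all others. In shFITM2, CHMP1A (61.9 ± 3.16), CHMP2A (53.8 ± 1.598) and SNX3 (41.3 ± 1.11) came next, apart from one another by more than their SDs. VPS51 followed at 39.2 ± 1.21, and its SD range overlapped that of SNX3. In shCTRL, SNX3 (48.9 ± 1.71), CHMP1A (43.9 ± 3.54), CHMP2A (39.5 ± 9.12) and VPS26A (39.05 ± 4.43) came next. There the SD range of SNX3 overlapped those of CHMP1A and CHMP2A, and CHMP1A, CHMP2A and VPS26A did not differ beyond their SDs. Retromer subunits lay above the median, with VPS26A at 25.9 ± 0.328 CPM per kb in shFITM2, VPS29 at 25.5 ± 0.69 in shFITM2 and 30.7 ± 1.72 in shCTRL and VPS35 at 22.6 ± 0.408 in shFITM2 and 30.2 ± 3.73 in shCTRL. VPS26A was above VPS26B in both groups, and VPS4B above VPS4A. The giant VPS13 genes had low levels per length, VPS13A 4.85 ± 0.421 CPM per kb in shFITM2 and 6.52 ± 0.524 in shCTRL.

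**Figure D5:**
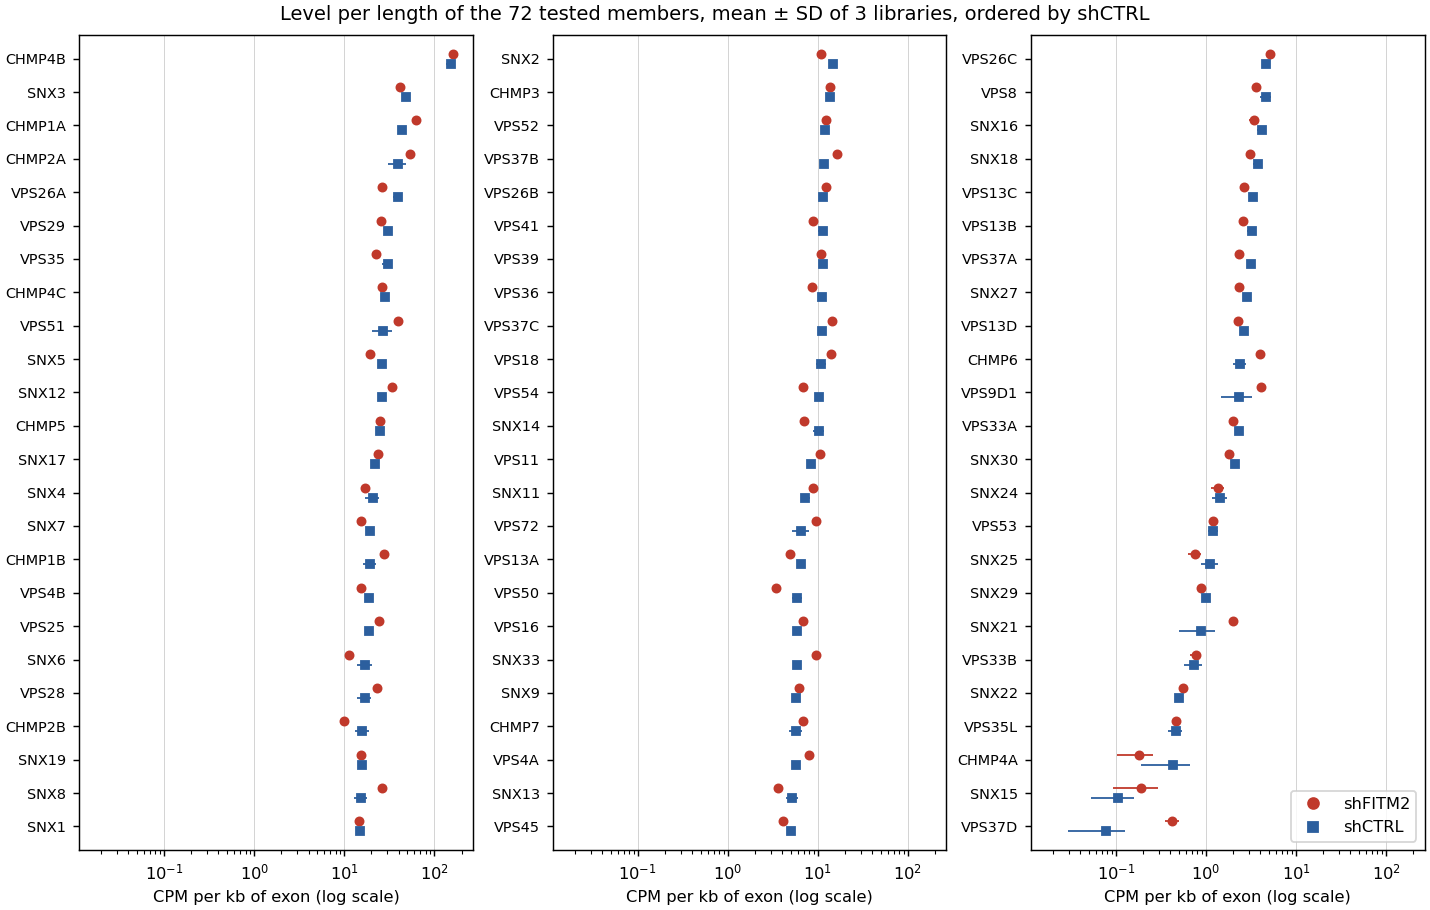
Level per length (CPM per kb of exon, log scale) of the 72 tested members, mean and SD of 3 libraries for shFITM2 and shCTRL, ordered by the shCTRL mean. CHMP4B is at the top in both groups, and members such as VPS37D and CHMP4A are at the low end.

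Partners of these complexes that the name rule does not reach were taken as 58 genes in 4 lists, of which 57 were tested: 9 were called higher and 23 lower in the group fit, and 5 higher and 12 lower with the offset. These are 15.8% and 40.4% of the 57 in the group fit, where 24.2% and 24.5% of all tested genes were called, and 8.77% and 21.1% with the offset, where 11.8% and 17.4% were. Among 13 ESCRT partners, 3 were higher and 6 lower in the group fit. STAM2, an ESCRT-0 subunit, had 19.1, 19.4 and 21.5 CPM in shFITM2, against 36.3, 32.4 and 30.7 CPM in shCTRL (log2 fold change −0.73 and −0.27 with the offset, adjusted p = 0.000222 and 0.0316). VTA1, a VPS4 cofactor, and PDCD6IP (ALIX) were called lower in the group fit, at −0.55 and −0.43, and not with the offset, at −0.13 and −0.07. PDCD6IP was called lower with GC from all coding transcripts (log2 −0.18, adjusted p = 0.0147). PTPN23, a BRO1-domain partner of ESCRT, was called in opposite directions, at 0.36 in the group fit (adjusted p = 0.0411) and −0.26 with the offset (adjusted p = 0.00813). PTPN23 lost its call in the group fit without shFITM2 replicates 1, 2 or 3 or shCTRL replicates 1 or 2 (log2 0.25 to 0.39, adjusted p 0.0707 to 0.148). For PTPN23, the call with the offset was not kept without shFITM2 replicate 2 (log2 −0.23, adjusted p = 0.0618). The STAM2 call with the offset was lost without shFITM2 replicates 1, 2 or 3 or shCTRL replicate 1 (log2 −0.30 to −0.21, adjusted p 0.0668 to 0.142).

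The CCC and WASH complexes act with retriever and build actin on endosomes. Of their 16 genes 4 were higher and 7 lower in the group fit, where 24.2% and 24.5% of all tested genes were. With the offset none was higher and 2 were lower, where 11.8% and 17.4% of all genes were. COMMD4 was called in opposite directions, at 0.34 and −0.19 with the offset (adjusted p = 0.00158 and 0.0292). COMMD4 was not called with GC from all coding transcripts (log2 −0.15, adjusted p = 0.0758). The COMMD4 call with the offset was lost without shFITM2 replicates 1, 2 or 3 or shCTRL replicates 1 or 2 (log2 −0.22 to −0.15, adjusted p 0.0597 to 0.145). COMMD2, WASHC4 and COMMD8 had −0.51, −0.52 and −0.53 in the group fit and −0.08, −0.03 and −0.02 with the offset, called in the group fit only. Of 16 genes for tethers and the PI3P kinase, 8 were lower and none higher in the group fit, and 5 lower with the offset, where 24.5% and 17.4% of all genes tested were lower. PIK3R4, the kinase's regulatory subunit, averaged 55.02 ± 3.03 CPM in shFITM2 and 82.8 ± 2.895 CPM in shCTRL (−0.59 and −0.37, adjusted p = 0.000157 and 0.000231). HOOK1 had −0.53 and −0.07, called lower in the group fit and not with the offset. HOOK1 was called lower with GC from all coding transcripts (log2 −0.26, adjusted p = 0.0085). CCZ1, which activates RAB7 with MON1, had −0.56 and −0.38 and was called in both, but its near-identical copy CCZ1B makes its count uncertain.

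Cargo receptors retrieved by these routes gave 2 higher and 2 lower of 12 in the group fit, and 4 higher and 2 lower with the offset. Over all genes, 24.2% were higher and 24.5% lower in the group fit, and 11.8% and 17.4% with the offset. The transferrin receptor TFRC averaged 399.9 ± 17.6 CPM in shFITM2 and 581 ± 41.4 CPM in shCTRL, and was called lower in both fits (−0.54 ± 0.070 and −0.23 ± 0.043, adjusted p = 0.00016 and 0.000968). The endocytic receptor LRP1 averaged 259 ± 11.96 CPM in shFITM2 and 149.9 ± 28.8 CPM in shCTRL and was called higher in both (0.79 ± 0.12 and 0.26 ± 0.056, adjusted p = 0.00083 and 0.00299). The other receptor gene called higher in both fits was IGF2R, at 0.26 and 0.23 (adjusted p = 0.004 and 0.000949, edgeR). The copper transporter ATP7A was called lower in the group fit, at −0.55, and not with the offset, at −0.15. ATP7A was called lower with GC from all coding transcripts (log2 −0.23, adjusted p = 0.0364).

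RefSeq promoters (GRCh38.p14, 250 bases before to 50 after the start) were held for 55 of the 76 genes and were searched on both strands for 3 motifs. TCACGTGA, the core of the element bound by TFEB at lysosomal genes, was in 2 of the 55 (3.64%; CHMP4A and VPS11), against 1.04% of 27305 promoters. The shorter CACGTG, which lies within it, was in 7 (12.7%), against 7.43% of all promoters, 4 of them at genes called higher in the group fit and 2 at genes called lower. The ETS motif CCGGAAGT was in 7 (12.7%), against 4.44%. A match describes the letters of the window and shows no binding.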

How the data were processed

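Per the labels' protocols, Trizol was used to isolate total RNA, from which strand-specific libraries were prepared (NEBNext Ultra Directional). The authors deposited 1 table of raw read counts per gene for 3 shFITM2 and 3 shCTRL libraries, and gene annotation columns including exon length. The submitters' processing notes list featureCounts 1.5.0-p3, HISAT2 2.0.5, DESeq2 1.16.1, StringTie 1.3.3b and hg19, without roles. How strand and multi-mapping reads were handled is not given in the sources used here. The positions in the table match GRCh38 and GENCODE 29 for 58735 of 58735 Ensembl identifiers, so coordinates are given on GRCh38.

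Groups came from the sample titles. The members and gene lists were chosen with earlier results of these data known. Library totals were 16964075 to 18855731 counts, and counting error is smallest for the members with most reads. Each library counted as 1 sample. Replicate libraries differed by more than sampling noise (chi-square per gene 2.32 to 28.3), which does not show that they were grown apart.

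From the counts, edgeR 4.0.16 (R 4.3.3, limma 3.58.1) fitted a robust quasi-likelihood model with group as the term, TMM normalization, the expression filter at a minimum count of 10 and total of 15, and p-values adjusted by Benjamini-Hochberg across every gene tested. Adjusted p-values for single genes are from edgeR fits, except those given with DESeq2's Wald test. The second fit added a gene-by-library offset, for which a 6-df spline described how a library's log2 values deviate from the gene mean as a function of GC in 1 GENCODE transcript per gene. Log2 fold changes are shFITM2 over shCTRL; CPM are counts per 1e6 reads of the TMM library size, and CPM per kb are divided by exon length. The fits were also run on simulated counts, with outcomes that are not reported here. The simulation gave all libraries of a group the same GC slope, whereas the slopes of the real libraries differed within groups. It therefore cannot show how the fits perform on these data. Named genes were up to 5 members of each complex with the smallest p in the group fit, and members and paralogs called in opposite directions. Members called in the same direction in both fits were named if their absolute log2 fold change was at least 0.5 in both. Members not tested, FITM2 and up to 3 genes of each partner list were also named. Others named outside this rule were chosen after their values were seen. Alternatives were DESeq2 1.42.0 and its size factors, limma-voom, library totals, other filters, GC with length, the replicate block, an adjusted p under 0.01 and each library left out; GC from all coding transcripts was added after seeing the data. A further leukocyte marker and the sequences of a further pair of paralogs are not reported here.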

Additional observations from a re-analysis of the deposited data

How the results depend on the processing

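The 46 group-fit calls among the members became 43 to 46 with DESeq2, its size factors, library totals, limma-voom and other filters, 35 at an adjusted p under 0.01, and 36 to 50 without each library in turn. With the GC offset in place of no offset they became 20, and with GC and length in the offset 16; the part of base composition in the calls was not tested. The replicate numbers did not pair the libraries (correlations of same-numbered libraries −0.038, −0.005 and −0.053), and the replicate block gave 42 calls, or 18 with the GC offset; VPS16, SNX25, VPS13D and SNX11 lost their calls with the block (adjusted p 0.0551 to 0.1), as did SNX27 (0.0535) and VPS54 (0.0597) with the block and offset. The 20 calls with the offset became 10 at an adjusted p under 0.01, 16 with GC from all coding transcripts, 16 with GC and length, and 9 to 33 without each library in turn. The 32 calls among partner genes became 17 with the GC offset and 19 with GC and length. The median log2 fold change of the members was −0.094 without shCTRL replicate 3, and −0.094 to −0.038 over the libraries left out. FITM2 was lower under every alternative run, with log2 fold changes from −1.225 to −1.002 when libraries were left out. The sign of the log2 fold change differed between the group fit and the GC offset for 26 of 72 tested members and 16 of 57 partner genes, and the cause was not tested. Of the 26, 16 were genes named by the rule, and only genes named by the rule are listed here. Against the group fit, the GC offset gave CHMP1A −0.11, SNX16 0.25, SNX17 −0.27, VPS13A 0.021, VPS13C 0.10, VPS16 −0.19, VPS18 −0.20, VPS26B −0.24, VPS28 −0.23, VPS29 0.11, VPS37B −0.027, VPS37C −0.16, VPS4B 0.066, VPS51 −0.22, VPS52 −0.12 and VPS53 −0.069. The GC and length offset gave CHMP1A −0.11, SNX16 0.25, SNX17 −0.26, VPS13A 0.0069, VPS13C 0.089, VPS16 −0.17, VPS18 −0.17, VPS26B −0.22, VPS28 −0.27, VPS29 0.090, VPS36 0.011, VPS37B −0.014, VPS37C −0.15, VPS4B 0.083, VPS51 −0.20, VPS52 −0.097 and VPS53 −0.069. Library totals gave VPS53 −0.0043. Against the GC offset fit, GC from all coding transcripts gave VPS13B 0.016, VPS36 0.033, VPS37B 0.065 and VPS4B −0.025, and GC and length gave VPS36 0.011. Without each library in turn, the range was VPS35L −0.11 to 0.10 and VPS53 −0.082 to 0.10 in the group fit, and with the offset CHMP6 −0.083 to 0.14, SNX11 −0.0096 to 0.20, SNX13 −0.066 to 0.025, VPS13A −0.021 to 0.053, VPS35L −0.11 to 0.096, VPS36 −0.049 to 0.0074, VPS41 −0.068 to 0.0086, VPS4B −0.014 to 0.12, VPS53 −0.15 to 0.028 and WASHC4 −0.079 to 0.011. The members with few reads (VPS37D, CHMP4A, SNX15) are limited by depth.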
